A study of Mus musculus with 18 samples.

Results

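The genes described here are 8 readers of methylated CpGs and enzymes of base removal and base deamination: Mbd1, Mbd2, Mbd3, Mbd4, Uhrf1, Uhrf2, Tdg and Apobec2. They were taken by name from the muscle RNA-seq table, by a rule that sets no condition on their values, and are 8 of the 23420 genes in it. All 8 averaged at least 10 normalized counts over the libraries and so were among the 13178 genes tested. Uhrf1 did so only through a single library, without which its mean was 8.12. A normalized count is the number of reads counted on a gene divided by the size factor of its library.

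RNA was sequenced from hindlimb skeletal muscle of female C57BL/6J mice aged 2, 20 and 28 months, hereafter 2-m, 20-m and 28-m muscle. Each age had 3 libraries, 1 from each of 3 mice, and no mice were pooled. DNA of 3 mice per age was pooled for methyl-CpG-binding domain sequencing (MBD-seq) of muscle and of splenic T cells, so that each age of a tissue is a single pool. No transgene or treatment is named for these mice, and age was what distinguished the groups. The muscle was whole tissue, in which fewer cells of a type and less RNA per cell cannot be told apart.

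Methylated CpGs act partly through proteins that bind them. Proteins with a methyl-CpG-binding domain recruit repressive complexes such as NuRD, a nucleosome remodelling and histone deacetylase complex, and Uhrf1 recognises newly replicated DNA that is methylated on a single strand and brings the maintenance methyltransferase Dnmt1 to it. Methylation is also undone by repair, in which glycosylases such as Tdg and Mbd4 remove a mismatched thymine or an oxidised methylcytosine and base excision repair fills the gap. Muscle is a tissue of largely non-dividing fibres, and it is known for high expression of Apobec2, a member of the cytidine deaminase family.

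The 9 libraries held between 20203833 and 71115244 reads on genes, and their log2 values correlated with each other at Pearson r between 0.947 and 0.987 over genes. Muscle fibre genes were abundant in every library, with a summed normalized count of the 10 listed genes between 5505842 and 6952739.8, and the T cell list of 5 genes summed to at most 28.3. The first 2-m library stood apart. Its marrow myeloid list of 8 genes summed to 5218, against 16.8 to 74.2 in the other libraries, and its bone and cartilage list of 5 genes to 1794, against 5.1 to 104. Slow fibre genes summed to between 12890 and 115123 in 2-m muscle, between 163266 and 289784 in 20-m muscle and between 202374 and 255812 in 28-m muscle, and all 7 rose at both ages against 2-m muscle. Of 6 fibroblast genes, the collagens Col1a1, Col1a2 and Col3a1 fell at both ages against 2-m muscle, while Dcn, Lum and Pdgfra were not called. Of 6 adipocyte genes 4 fell at 20 months and 2 at 28 months, and of 6 denervation genes 3 rose at 20 months and all 6 at 28 months against 2-m muscle, with 2 also higher in 28-m than in 20-m muscle. Against 2-m muscle, fast fibre genes fell in 3 of 8 cases at both ages, macrophage genes in 2 of 7 and Schwann cell genes in 2 of 4 at 20 months, and 1 of 6 endothelial genes rose at 28 months. Of 10 tested cell division genes, 1 fell at 20 months and 1 rose at 28 months. Beside these stand 16.6% and 13.8% of all genes called in 20-m and 28-m against 2-m muscle, and 0.379% in 28-m against 20-m muscle. The part of these cell types in the results below was not tested.

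Steady-state levels of the 8 transcripts spanned more than 3 orders of magnitude per unit of transcript length. On the scale of normalized counts per kilobase of the longest transcript, averaged over 9 libraries, Apobec2 stood highest at 12651, at the 99.1st percentile of the 12324 tested genes that had a length. Mbd3 followed at 2002 (92.9th percentile) and Mbd2 at 948 (85.8th percentile). Uhrf2, at 157, lay next to the median gene, whose level was 156, and Mbd1 lay below it at 107 (41.8th percentile). Mbd4 at 15.1, Tdg at 6.13 and Uhrf1 at 5.42 were scarce, at the 12.8th, 4.9th and 3.9th percentiles. Of the neighbours in this order, Mbd4 and Tdg overlapped between libraries on this scale, as did Tdg and Uhrf1, and the others did not. The Uhrf1 level rested largely on the first 2-m library, without which its mean normalized count was 8.12 rather than 19.35.

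**Figure D1:**
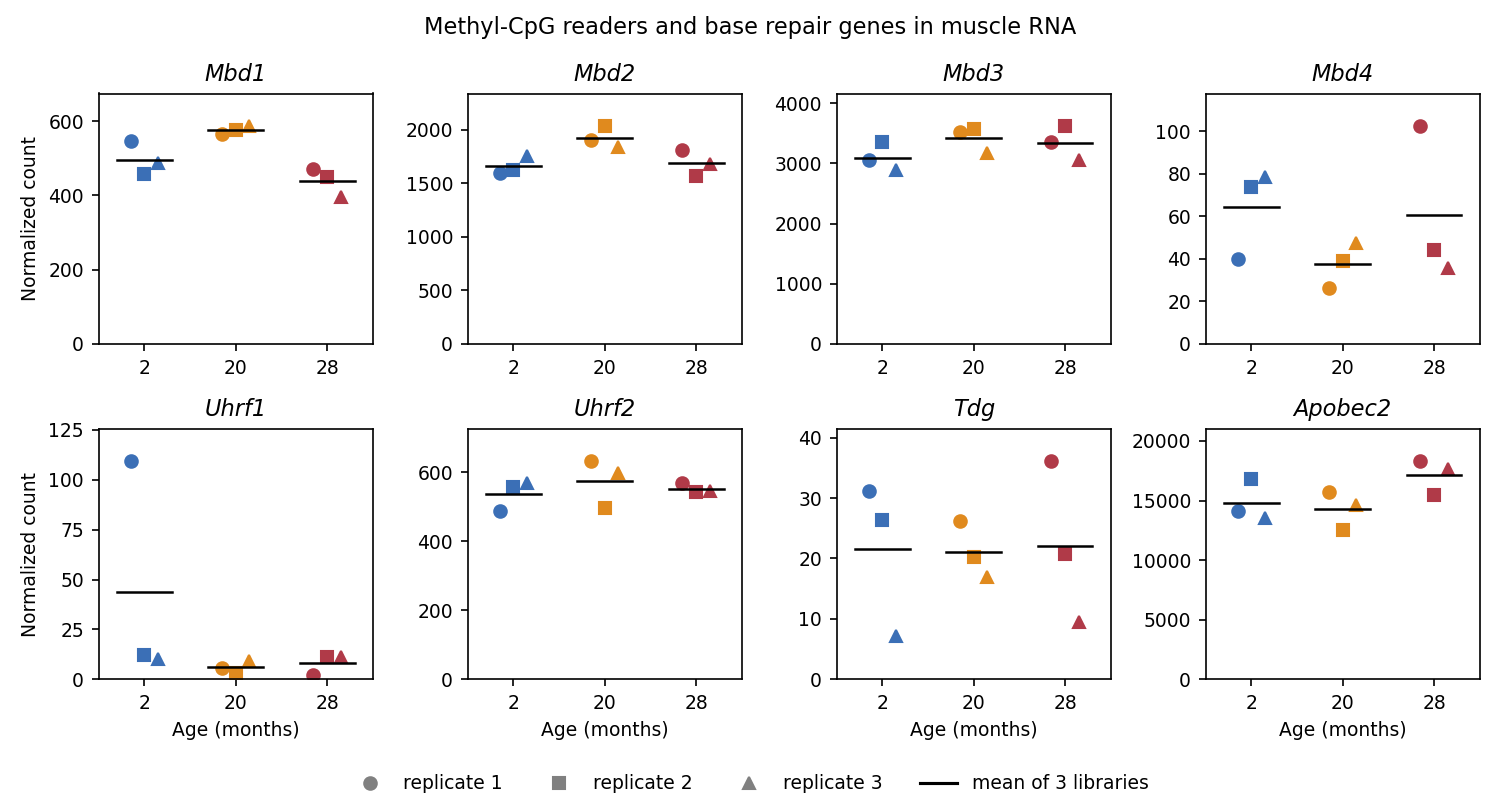
Normalized count (linear axis from 0, a scale of its own for each gene) of the 8 genes in the 9 muscle libraries, by age in months, with a symbol for each replicate and a line for the mean of 3 libraries. The 20-m points of Mbd1 and Mbd2 lie above all others of those genes, and the highest Uhrf1 point, 109, belongs to the first 2-m library.

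Across the ages, no gene of the 8 changed in the test across all genes. With limma and Benjamini-Hochberg adjustment, 0 of 8 were called at an adjusted p below 0.05 in 20-m against 2-m muscle, where 16.6% of all genes tested were called, 0 of 8 in 28-m against 2-m muscle (13.8% of all genes) and 0 of 8 in 28-m against 20-m muscle (0.379% of all genes). At an unadjusted p below 0.05, limma gave 1 of 8 (Mbd2; 31.5% of all genes), 0 of 8 (28.2%) and 3 of 8 (Mbd1, Mbd2 and Apobec2; 10.6%) in the same order. On the reads recovered from the table, edgeR called 0 of 8 in each comparison (16.7%, 13.5% and 0.387% of all genes), with 2, 1 and 3 genes at an unadjusted p below 0.05 (31.6%, 28.0% and 10.5%). DESeq2 called 1 of 8 in 20-m against 2-m muscle, which was Uhrf1, and 0 of 8 in the others (19.4%, 16.1% and 1.73% of all genes), with 2, 1 and 2 genes at an unadjusted p below 0.05 (31.0%, 27.2% and 10%). Uhrf1 passed the limit for testing only through its level in the first 2-m library. In the comparisons with 2-m muscle, all of these counts lay below the shares of all genes, whereas in 28-m against 20-m muscle the counts at an unadjusted p below 0.05 lay above them in all 3 tools. With libraries scaled to the same sum of gene reads, the limma count at an unadjusted p below 0.05 in 28-m against 20-m muscle was 0 of 8. Of the 13178 genes tested, 425 reached it there, against 1396 in the main fit. The count was 0 of 8 without the libraries numbered 3 (1085 of all genes). It was 1 of 8 without the second 20-m or the third 28-m library (925 and 1071 of all genes). No gene differed by more than 2-fold at an unadjusted p below 0.05 in limma, where 5.17%, 5.14% and 1.31% of all genes did.

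**Figure D2:**
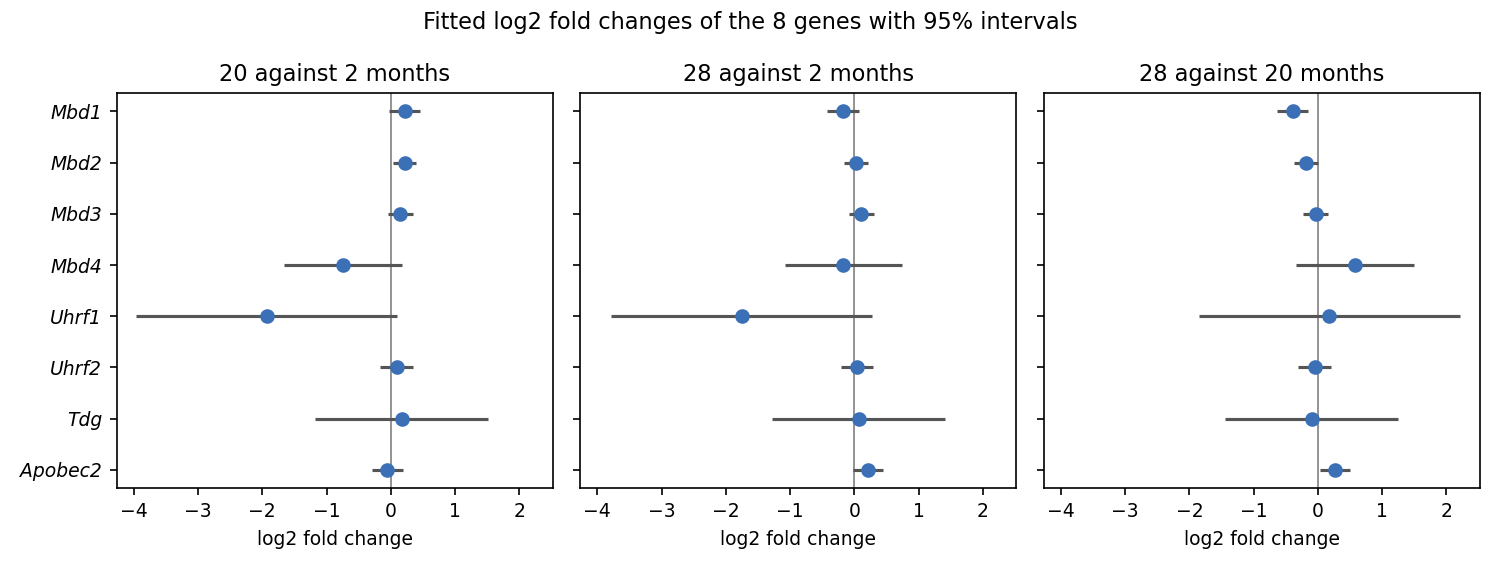
Fitted log2 fold change (points) of the 8 genes with its 95% interval (lines) from limma, in a panel for each comparison of ages. The intervals of Mbd1, Mbd2, Mbd3, Uhrf2 and Apobec2 are short, while those of Uhrf1, Tdg and Mbd4 reach across 1 to 4 log2 units.

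Mbd1, a methyl-CpG-binding repressor (chr18:74268175-74281234, plus strand, 16 exons, RefSeq on mm10 as for the genes below), was highest in 20-m muscle. Its normalized counts were 546, 456 and 487 in 2-m muscle, 564, 575 and 586 in 20-m muscle and 471, 450.2 and 396 in 28-m muscle (496 ± 45.6, 575 ± 11.0 and 439 ± 38.4, mean ± SD, n = 3 each). Every 20-m library lay above every library of the other ages, and the 2-m and 28-m libraries overlapped. Age accounted for 77.1% of the variance of its log2 values, against a median of 42.2% over all genes tested, with p = 0.00714 in an exact permutation test over every division of the 9 libraries into 3 ages of 3, whose smallest possible p is 0.00357. A p below 0.05 was reached by 1 of the 8 genes and by 25.4% of all genes tested. Between 20-m and 28-m muscle the fitted log2 fold change was −0.39 (SE 0.113, 95% interval −0.64 to −0.15), with an unadjusted p of 0.00432 and an adjusted p of 0.198 in limma over all genes. When the libraries were instead scaled to the same sum of gene reads, the share fell to 45.6% and the permutation p was 0.161.

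Mbd2 (chr18:70568292-70626131, plus strand, 7 exons) codes for the protein whose binding domain also served to capture DNA in MBD-seq, and joins NuRD to methylated DNA. The libraries held normalized counts of 1596, 1619 and 1754 at 2 months, 1898, 2031 and 1833 at 20 months and 1807, 1570.3 and 1682 at 28 months (1656 ± 85.1, 1921 ± 101 and 1686 ± 118, n = 3 each). As for Mbd1, the 20-m libraries were the 3 highest, with no overlap with either other age. The log2 difference was 0.21 between 20-m and 2-m muscle (SE 0.0843, unadjusted p = 0.0254, adjusted p = 0.102 in limma) and −0.19 between 28-m and 20-m muscle (unadjusted p = 0.0436, adjusted p = 0.457 in limma). Age held 65.9% of its variance (exact permutation p = 0.0571), and 19.5% when libraries were scaled to the same sum of gene reads (exact permutation p = 0.479).

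Mbd3 (chr10:80392539-80399531, minus strand, 7 exons), a NuRD subunit that takes the place of Mbd2 and binds methylated CpGs weakly in mammals, had a higher level per kilobase than Mbd2 at every age. The normalized counts of Mbd3 were 3054, 3355 and 2883 in 2-m muscle, 3525, 3572 and 3175 in 20-m muscle and 3361, 3618 and 3056 in 28-m muscle (3097 ± 239, 3424 ± 217 and 3345 ± 282, n = 3 each). The 3 ages overlapped, and the 95% interval of the log2 difference between 28-m and 2-m muscle ran from −0.08 to 0.30. The log2 ratio of Mbd2 to Mbd3 normalized counts within a library, which does not depend on its scaling, was −0.90 ± 0.169, −0.83 ± 0.053 and −0.99 ± 0.189 in 2-m, 20-m and 28-m muscle (n = 3 each). The exact permutation p of these ratios over the 3 ages was 0.493.

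Counted over all 8 genes, the libraries of the ages compared did not overlap for 3 genes in 20-m against 2-m muscle, which were Mbd1, Mbd2 and Uhrf1 (36.0% of all genes), for 0 genes in 28-m against 2-m muscle (30.3%) and for 2 genes in 28-m against 20-m muscle, which were Mbd1 and Mbd2 (17.5%). With 3 libraries against 3, an exact permutation test of a single gene cannot go below p = 0.1. The first and the last of these comparisons share the 20-m libraries.

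Uhrf1 (chr17:56303337-56323486, plus strand, 17 exons), the reader of hemimethylated DNA that accompanies replication, was high in a single library. It had normalized counts of 109, 12.3 and 10.1 in 2-m muscle, 5.60, 3.38 and 9.26 in 20-m muscle and 1.90, 11.0 and 11.3 in 28-m muscle (43.9 ± 56.6, 6.08 ± 2.97 and 8.09 ± 5.36, n = 3 each). The first 2-m library was 8.85-fold above the next highest of the 9 and supplied 49 of the 107 reads counted on the gene, whose other libraries held between 1 and 17 reads. Limma gave log2 differences of −1.93 (SE 0.937, adjusted p = 0.181) for 20-m and −1.75 (adjusted p = 0.247) for 28-m against 2-m muscle, and DESeq2 −2.75 (adjusted p = 0.0189) for 20-m against 2-m muscle. Without the first 2-m library, the 2-m mean was 11.2, limma gave −0.87 (adjusted p = 0.566) and −0.69 (adjusted p = 0.686), and DESeq2 −0.79 for 20-m against 2-m muscle with an unadjusted p of 0.425 and no adjusted value. Without that library the mean over the other 8 was 8.12, under the limit set for testing.

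The same library was high in genes of dividing cells and of marrow and bone. Its cell division list of 14 genes summed to 2155, against 673 to 932 in the other libraries, with normalized counts of 535 for Mki67, a protein of cycling cells, and 247 for Top2a, the topoisomerase of mitotic chromosomes. Mcm6 and Tyms of the list were not highest there, at 174 and 26.8, while the others were. Mcm6 had 266, 203 and 257 in 28-m muscle, and Tyms 37.8 in the third 28-m library. Of marrow genes, S100a9 stood at 1676 and Ngp at 1204 in the first 2-m library, and of bone and cartilage genes Col2a1 at 825 and Ibsp at 758. Among the other 8 libraries, S100a9 reached at most 35.4 and Col2a1 97.5. The part of these cells in the Uhrf1 level was not tested.

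**Figure D3:**
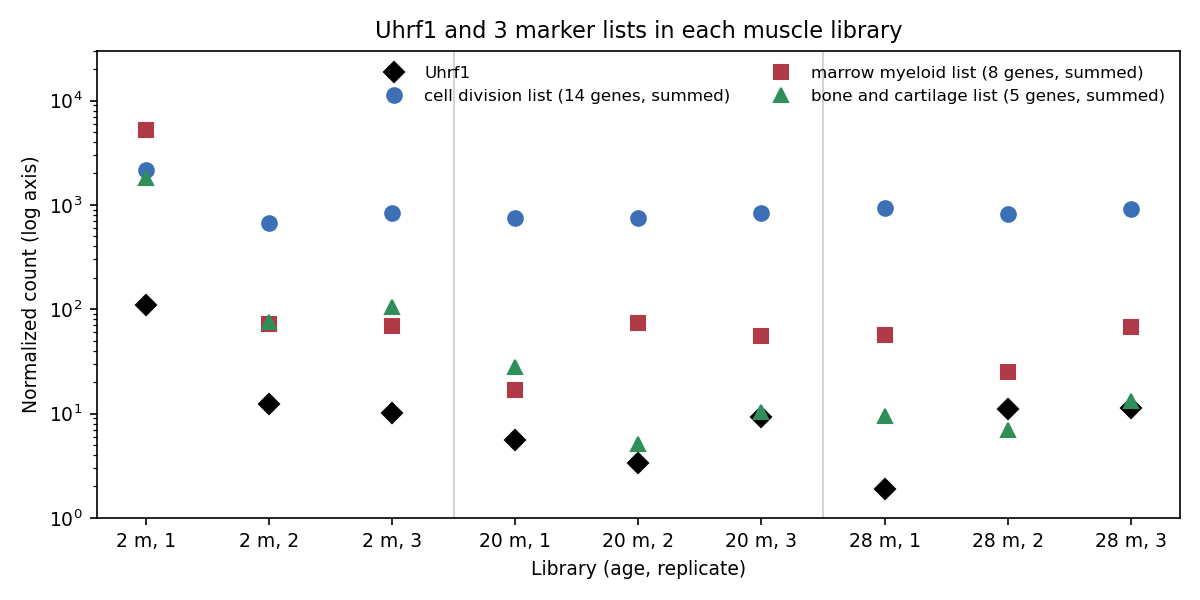
Normalized count (log axis) of Uhrf1 and summed normalized counts of the cell division, marrow myeloid and bone and cartilage lists in each of the 9 muscle libraries, named by age and replicate. All 4 are highest in the first 2-m library, where Uhrf1 stood at 109 and the marrow list at 5218.

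Uhrf2 (chr19:30030513-30093726, plus strand, 16 exons), the paralogue of Uhrf1, showed no such library. Its normalized counts were 488, 557 and 568 at 2 months, 631, 496 and 597 at 20 months and 569, 543 and 545 at 28 months (538 ± 43.3, 575 ± 70.3 and 552 ± 14.6, n = 3 each). The ages overlapped, and the first 2-m library was the lowest of the 9. The 95% interval of the log2 difference between 28-m and 2-m muscle was −0.21 to 0.30 (adjusted p = 0.854 in limma). The log2 ratio of Uhrf1 to Uhrf2 was −4.41 ± 1.96, −6.42 ± 0.501 and −6.20 ± 1.23 at 2, 20 and 28 months. All 2-m ratios lay above all 20-m ratios, and the 28-m ratios overlapped both (exact permutation p = 0.207 over the 3 ages).

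Mbd4 (chr6:115840697-115853341, minus strand, 8 exons), a glycosylase with a methyl-CpG-binding domain that removes thymine opposite guanine, was scarce and scattered. Per library, its normalized counts were 40.1, 74.0 and 78.7 at 2 months, 26.2, 38.8 and 47.4 at 20 months and 102, 44.2 and 35.9 at 28 months (64.3 ± 21.1, 37.5 ± 10.7 and 60.8 ± 36.3, n = 3 each). The highest value and the second lowest both came from 28-m muscle. The log2 difference between 20-m and 2-m muscle was −0.74 with a 95% interval of −1.66 to 0.17 (adjusted p = 0.253 in limma), so that a fall of more than 2-fold and no change both lay inside it. Between 14 and 109 reads per library stood behind these values.

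Tdg (chr10:82629838-82650799, plus strand, 10 exons), the thymine DNA glycosylase that also excises the oxidised forms of methylcytosine made by Tet enzymes, was measured from 5 to 31 reads per library. Its normalized counts were 31.2, 26.4 and 7.22 at 2 months, 26.2, 20.2 and 16.9 at 20 months and 36.1, 20.7 and 9.44 at 28 months (21.6 ± 12.7, 21.1 ± 4.69 and 22.1 ± 13.4, n = 3 each). The means were close, and age held 1.0% of the variance (exact permutation p = 0.986), but the 95% interval of the log2 difference between 28-m and 2-m muscle, −1.28 to 1.42, includes changes of more than 2-fold in either direction. The library numbered 3 was the lowest of its age at each age. Of its exon bases, 369 (10.4%) are shared with Glt8d2 on the opposite strand, so that its level is uncertain where the counting did not use strand. RefSeq also lists copies named Tdg-ps and Tdg-ps2, and reads shared with them were not examined. Within a library, the log2 ratio of Tdg to Mbd4 was −1.69 ± 1.48, −0.78 ± 0.726 and −1.45 ± 0.382 at the 3 ages (exact permutation p = 0.561).

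Apobec2 (chr17:48419231-48432728, minus strand, 3 exons), a muscle-abundant protein of the cytidine deaminase family, had the most reads of the 8. Normalized counts of Apobec2 were 14142, 16788 and 13521 in 2-m muscle, 15714, 12513 and 14614 in 20-m muscle and 18278, 15421 and 17684 in 28-m muscle (14817 ± 1735, 14280.4 ± 1627 and 17128 ± 1508, n = 3 each). The 28-m mean was the highest, but its lowest library lay below the highest of each other age. The log2 difference was 0.26 between 28-m and 20-m muscle (unadjusted p = 0.0305, adjusted p = 0.416 in limma) and 0.21 between 28-m and 2-m muscle (unadjusted p = 0.0742, adjusted p = 0.227 in limma).

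The libraries of an age came from different mice, and their spread exceeded what counting alone would give for all 8 genes. The average coefficient of variation within an age was 10.6% for Apobec2, of which counting alone would give 1.0%, 7.5% for Mbd3 (2.2%) and 5.8% for Mbd2 (3.0%). For Mbd1, 6.6% stood against 5.6% and for Uhrf2, 7.6% against 5.3%. The scarce genes had 81.4% for Uhrf1 (51.8% from counting), 47.2% for Tdg (28.8%) and 40.3% for Mbd4 (18.8%).

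The transcripts with profiles most like those of the 8 genes were found by Pearson r of log2 values over the 9 libraries, as a description, since the libraries share scaling and depth. For Mbd1 these were Rpap3 (r = 0.953) and Tsc22d3 (0.939), and for Mbd2 they were Ccnk (0.960) and Ccdc41 (0.953). Mbd3 was nearest to S100a1 (0.971) and Mta2 (0.966), Mbd4 to Npas2 (0.952) and 4933431E20Rik (0.951), and Uhrf2 to Pgam5 (0.908). Tdg was nearest to Tmem238 and Gtf3c6 (both 0.939) and Apobec2 to Tppp3 (0.959) and Crlf3 (0.936). For Uhrf1, the nearest were Pf4 and Mmp13 (both 0.966), and Mmp13 stood at 334 in the first 2-m library and at no more than 13.2 in any other.

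Around the 8 genes, 6 lists of related genes held 57 genes, of which 48 were tested. In limma, 7 of the 48 were called in 20-m against 2-m muscle (3 higher, 4 lower), 7 in 28-m against 2-m muscle (2 higher, 5 lower) and 0 in 28-m against 20-m muscle, beside 16.6%, 13.8% and 0.379% of all genes tested. As a share of 48, 7 genes do not stand apart from these. In 28-m against 20-m muscle 6 of the 48 had an unadjusted p below 0.05 in limma, beside 10.6% of all genes. EdgeR and DESeq2 also called 0 there. Both comparisons with 2-m muscle use the same 2-m libraries. Without the first 2-m library, 5 and 5 were called in the comparisons with 2-m muscle (10.6% and 8.4% of all genes), and with libraries scaled to the same sum 2 (Gatad2b and Tet1) and 3 (Dnmt3a, Tet1 and Tet3; 4.45% and 4.2% of all genes).

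Of the other methyl-CpG readers, 6 of 8 were tested, and Zbtb38, a zinc finger protein that binds methylated DNA, rose. In the libraries it had normalized counts of 1380, 1318 and 949 in 2-m muscle, 2040, 1959 and 1522 in 20-m muscle and 1877, 1603 and 1621 in 28-m muscle, with no overlap between 2-m muscle and either older age. The log2 differences from 2-m muscle were 0.61 at 20 months (adjusted p = 0.0147 in limma) and 0.50 at 28 months (adjusted p = 0.0397 in limma), and with libraries scaled to the same sum it was called at neither age (adjusted p = 0.0592 and 0.133 in limma). The list had median log2 differences of 0.22 and 0.09, beside −0.02 and −0.01 for all genes, and no other gene of it was called.

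NuRD, the complex that Mbd2 and Mbd3 join, had calls in both directions among its 12 tested genes of 13. In 20-m muscle Gatad2b, a subunit that links the reader to the remodeller, rose by 0.79 on the log2 scale (adjusted p = 0.0324 in limma), and the remodeller Chd4 rose by 0.27 (adjusted p = 0.0447 in limma), while the remodeller Chd3 fell by 0.44 (adjusted p = 0.0141 in limma). In 28-m muscle the histone chaperone Rbbp4 rose by 0.26 (adjusted p = 0.0262 in limma) and the deacetylase Hdac2 fell by 0.34 (adjusted p = 0.00753 in limma). Without the first 2-m library, Chd4 and Rbbp4 were not called (adjusted p = 0.120 and 0.0892 in limma), and with libraries scaled to the same sum Gatad2b was the one NuRD gene called. The median of the list was −0.02 at 20 months and 0.015 at 28 months, close to that of all genes.

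Base excision repair, the pathway downstream of Tdg and Mbd4, had 19 of 21 genes tested and 1 call. Aptx, which removes adenylate left by failed ligation, had normalized counts of 680, 611 and 715 in 2-m, 581, 548 and 540.5 in 20-m and 512, 519 and 474 in 28-m muscle, and fell by 0.41 on the log2 scale in 28-m muscle (adjusted p = 0.0197 in limma, 0.0653 without the first 2-m library and 0.567 with libraries scaled to the same sum). In 20-m muscle limma called 0 of 19, with 4 at an unadjusted p below 0.05 (31.5% of all genes). The list had median log2 differences of −0.11 and −0.14. The uracil glycosylases Ung and Smug1 were not called, and Ung had normalized counts of 185, 173 and 195 in 2-m muscle and 94.9, 184 and 102 in 28-m muscle.

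Among the other cytidine deaminases, relatives of Apobec2, Apobec1 and Apobec3 were tested and neither was called in any comparison, while Apobec4 had a mean of 0.77 normalized counts. The partners of Uhrf1, which include Dnmt1, had 5 of 6 genes tested and 0 called against 2-m muscle in limma. Of these, 1 had an unadjusted p below 0.05 in 20-m muscle (31.5% of all genes) and 0 in 28-m muscle (28.2%). Dnmt1 had normalized counts of 413 ± 57.6, 424 ± 25.9 and 420.1 ± 6.39 at 2, 20 and 28 months (n = 3 each). In the list of enzymes that write and erase methylation, Tet1, Tet3 and Dnmt3a fell at both ages, and the log2 differences of Tet1 were −2.36 and −2.55 (adjusted p = 0.000315 and 0.000185 in limma). Without the first 2-m library, Tet3 was not called in 20-m muscle (adjusted p = 0.139 in limma), and with libraries scaled to the same sum neither Tet3 nor Dnmt3a was called there (adjusted p = 0.112 and 0.0610 in limma).

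**Figure D4:**
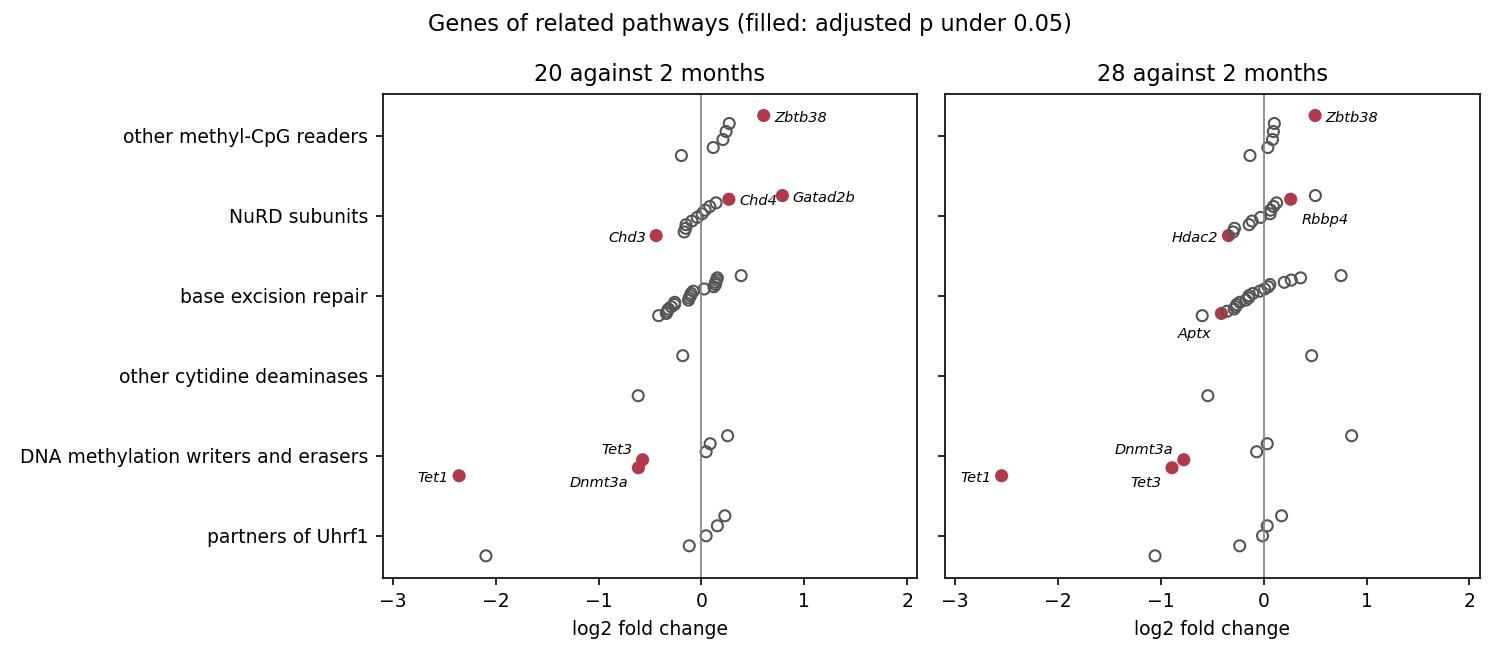
Fitted log2 fold change from limma of the tested genes of 6 related lists, in a panel for 20-m and a panel for 28-m against 2-m muscle, each point a gene and filled points those with an adjusted p below 0.05. Calls number 7 in each panel, and Tet1 has the lowest values, −2.36 and −2.55.

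MBD-seq was used to describe capture of methylated DNA at the same 8 genes. The authors counted reads of paired-end fragments in 500-bp bins, and values here are mean normalized counts per bin over the listed bins that overlap 1 kb on either side of the start site. Every listed bin had a read in at least 1 library. The window held 5 listed bins for 7 of the genes and 4 for Mbd2, for which a bin just after the start site is not listed and did not enter its values. If that bin held no reads, leaving it out raised the Mbd2 values per bin. Each age was 1 pool, so there was no test, and the 95% exact Poisson intervals cover counting error only and treat reads as independent, although reads of a fragment come in pairs and a read can fall in more than 1 bin, so that they are too narrow. In 2-m muscle, 7 of the 8 start sites lay between 1.09 and 10.9 per bin, with Mbd3 at the 7.7th, Mbd2 at the 16.6th and Uhrf2 at the 58.8th percentile of 20789 genes, whose median was 8.37. Apobec2 stood apart at 30.0 per bin, at the 88.6th percentile, and was also the gene of the 8 with the highest RNA level per kilobase. Its window held 9.6 CpGs per listed bin, fewer than those of the other 7 genes (16.8 to 36.6) and than the median of all genes (14.2).

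The 250 bases before annotated start sites also differed in CpG content. RefSeq promoters (GRCm38.p6) were matched for 6 of the 8 genes, 7 sequences in all. Of these, the 3 printed here, 5′ to 3′ on the strand of the gene and with every CpG in capitals, are the CpG-poorest, that of the least captured start site in 2-m muscle, and the CpG-richest.
Apobec2, chr17:48432729-48432978, minus strand: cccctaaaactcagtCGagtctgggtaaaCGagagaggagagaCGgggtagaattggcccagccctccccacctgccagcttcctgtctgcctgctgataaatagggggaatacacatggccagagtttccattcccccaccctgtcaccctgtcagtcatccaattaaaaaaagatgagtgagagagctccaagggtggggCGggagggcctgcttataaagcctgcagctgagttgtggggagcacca
Mbd3, chr10:80399532-80399781, minus strand: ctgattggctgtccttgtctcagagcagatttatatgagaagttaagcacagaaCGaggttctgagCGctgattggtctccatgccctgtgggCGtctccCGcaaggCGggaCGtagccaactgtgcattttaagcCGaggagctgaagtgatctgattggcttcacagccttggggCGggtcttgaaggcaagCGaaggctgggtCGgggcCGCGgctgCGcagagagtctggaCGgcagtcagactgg
Uhrf1, chr17:56304063-56304312, plus strand: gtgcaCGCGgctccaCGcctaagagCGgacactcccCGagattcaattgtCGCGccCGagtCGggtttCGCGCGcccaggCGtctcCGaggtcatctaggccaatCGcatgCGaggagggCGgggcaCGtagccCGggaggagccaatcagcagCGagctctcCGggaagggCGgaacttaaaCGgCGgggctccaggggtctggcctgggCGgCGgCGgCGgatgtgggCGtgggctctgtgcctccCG

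These held 4, 14 and 30 CpGs, beside a median of 6 over all 32851 promoters of the same length. The printed Uhrf1 sequence lies after the start site at chr17:56303337 used for MBD-seq, before another annotated start site. The other promoter of Uhrf1, directly before chr17:56303337, held 10 CpGs. The promoter of Tdg held 19, that of Mbd4 22 and that of Uhrf2 23. On either strand, the letters CAGCTG, an E-box form bound by myogenic factors, were present in Apobec2 and in no other of the 7, and in 13.0% of all promoters. The wider form CANNTG, which includes it, occurred in all 7 and in 66.2% of all promoters. TATAAA was present in Apobec2 and Mbd3 (12.4% of all promoters), and the E2F form TTTCGCGC in the CpG-rich promoter of Uhrf1 (0.3%). No match to TATTTATA, TTTGGCGC or GCGCATGC was found in the 7 windows (1.6%, 0.4% and 2.3% of all promoters). These matches are of letters and do not show binding.

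**Figure D5:**
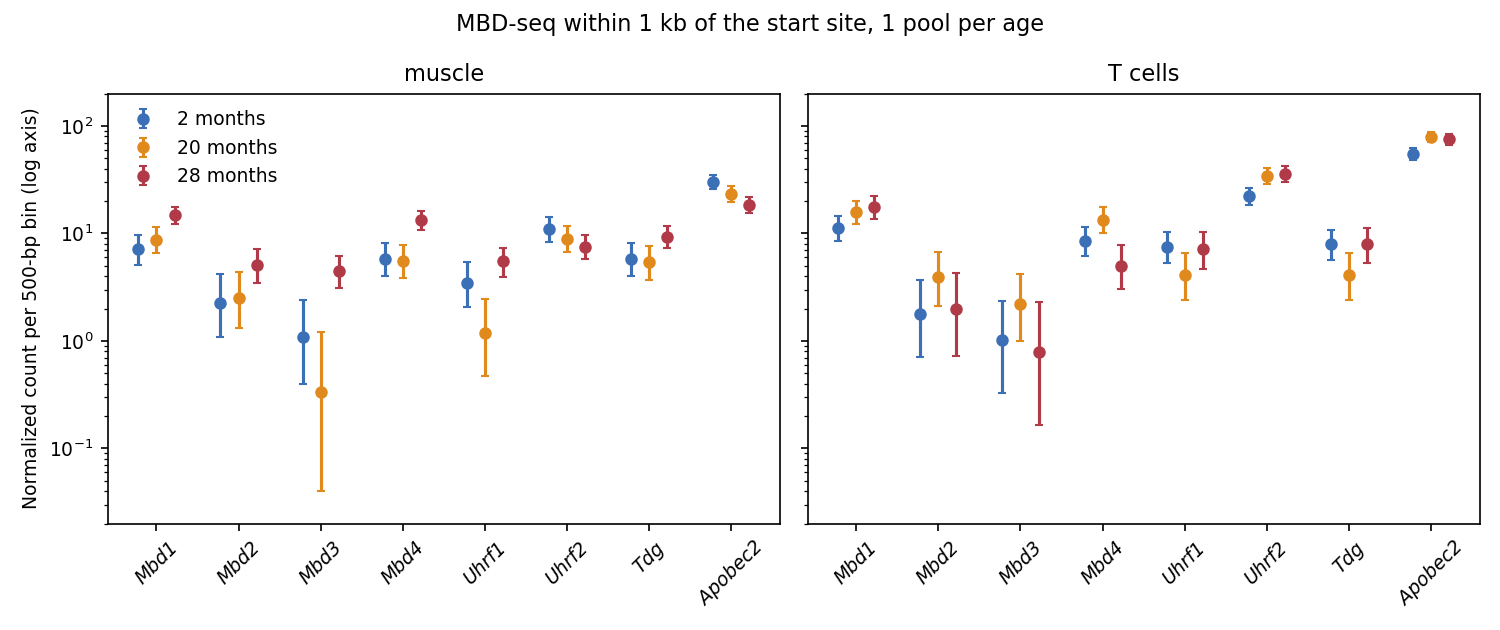
MBD-seq normalized count per 500-bp bin (log axis) within 1 kb of the start site of the 8 genes, in muscle and T cells, by age, with 1 pool per age and error bars of 95% exact Poisson intervals that cover counting error only. Apobec2 is the highest of the 8 at every age in both tissues, at 30.0, 23.2 and 18.5 in muscle.

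Between 2 and 28 months, capture in muscle was lower at Apobec2 and higher at 5 of the other start sites, on the scale of the deposited values. At Apobec2 the value was 30.0, 23.2 and 18.5 per bin at 2, 20 and 28 months, a log2 ratio of −0.70 between 28 and 2 months (interval −1.03 to −0.37). At Mbd1 it was 7.10, 8.76 and 14.8 (log2 ratio 1.06, interval 0.53 to 1.62), at Mbd4 5.82, 5.56 and 13.3 (1.19, 0.60 to 1.81) and at Mbd3 1.09, 0.337 and 4.46 (2.03, 0.77 to 3.57). Mbd2 had 2.27, 2.53 and 5.10 per bin and Tdg 5.82, 5.39 and 9.31, whereas the intervals of Uhrf1 (3.46, 1.18 and 5.48) and Uhrf2 (10.9, 8.93 and 7.52) included no difference. In all, 5 of the 8 start sites lay wholly above and 1 wholly below in 28-m muscle, beside 37.1% and 20.9% of all genes. With each library scaled to the same sum these counts became 6 and 0 (58.6% and 8.71% of all genes), and Apobec2 gave −0.26 with an interval of −0.59 to 0.08. Within 500 bp of its start site, Apobec2 lay wholly below under both scalings, at −0.89 (interval −1.30 to −0.48) as deposited and −0.45 (−0.86 to −0.04) with the same sum.

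Values of the whole muscle libraries differed in the same way. The median bin of muscle held 7.28, 8.42 and 13.4 normalized counts at 2, 20 and 28 months while the mean bin held 24.0, 22.2 and 17.6, and the median log2 ratio of the start sites of all genes between 28 and 2 months was 0.25. Over the gene bodies, 7 of the 8 genes lay wholly below and 1, Mbd4, wholly above in 28-m against 2-m muscle (58.4% and 22.5% of all genes), but with libraries scaled to the same sum the counts were 4 and 4 (21.2% of all genes below and 55.0% above).

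In T cells, Apobec2 again had the highest start-site value of the 8, with 54.8, 79.3 and 75.1 per bin at 2, 20 and 28 months (96.1st percentile at 2 months). The bin centred at −0.52 kb from its start site (negative values lie before it) held 18 CpGs and was the most captured within 5 kb in 2-m muscle and at each age in T cells, with 73.7, 53.9 and 37.0 normalized counts in muscle and 131, 184 and 155 in T cells. In 20-m muscle a bin centred at −3.02 kb had the same count, and in 28-m muscle a bin centred at 2.98 kb was higher, at 44.0. Uhrf2 had 22.1, 34.3 and 35.7 per bin in T cells. Start sites of 3 of the 8 genes lay wholly above and 0 below in 28-m against 2-m T cells (32.7% and 7.73% of all genes), and with libraries scaled to the same sum 0 lay above and 1 below (18.5% and 18.0%). Over the gene bodies in T cells all 8 lay wholly above at 28 months (66.1% of all genes above and 5.98% below), and with the same sum 6 lay above and 0 below (20.8% and 34.1%). The tissues were scaled together with different mean bins, 24.0 in 2-m muscle and 38.8 in 2-m T cells, so their levels are given side by side only.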

How the data were processed

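Muscle RNA-seq (3 libraries at each of 2, 20 and 28 months) and MBD-seq (1 pool of 3 mice per age and tissue) were analysed. The deposited signal values are normalized counts made by the authors, who trimmed reads with Trim Galore, aligned them to mm10 with Hisat2 (RNA; the submitters' processing notes list TopHat) or Bowtie2 (MBD-seq), counted them per refSeq gene with HTSeq or per 500-bp bin with bedtools, and divided them by a DESeq2 size factor per library. The counting strand was not given in the sources used here. All values (100%) were whole multiples of 1 read within 0.01, which gave back the reads. Rows that name no gene held 37.9 to 47.7% of the RNA table and were left out. Muscle DNA was captured in 2 rounds, and which of them the muscle columns hold is not stated in their names.

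Genes that averaged at least 10 normalized counts were fitted with limma 3.58.1 (R 4.3.3, limma-trend) on log2 of the normalized count plus 1, all 9 libraries together, with Benjamini-Hochberg adjustment over 13178 genes. Fold changes are on that scale, which understates those of low genes. Single genes over the 3 ages, and ratios of gene pairs, were compared by exact permutation tests with unadjusted p values. Alternatives were count tests on the recovered reads (DESeq2 1.42.0, edgeR 4.0.16), other pseudocounts, filters and scalings, a block, a batch term, and leaving out libraries. No pairing by replicate number was assumed in the fits, as only libraries numbered 3 correlated above 0.1 in each pair (0.109, 0.150 and 0.161). Named genes were the 8 members, list genes called (at most 4 per list and comparison) and the 2 nearest profiles, of which 1 is not reported here. Ung, Smug1, Dnmt1, the deaminases and the marker genes were named after their values were seen. The members and lists were chosen with earlier results of these data known.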

Additional observations from a re-analysis of the deposited data

How the results depend on the processing

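Over 22 other settings, 496 of 522 fitted log2 differences of the 8 genes kept their sign, and 1 passed the adjusted threshold, Uhrf1 with DESeq2 in 20-m against 2-m muscle (1 gene called against 0, log2 difference −2.75), which was lost without the first 2-m library. With the replicate number as a block 0 of the 8 were called in each comparison, while calls over all genes were 3000, 2529 and 138 (2181, 1814 and 50 without it). The number of genes with a permutation p below 0.05 over the 3 ages was 0 with libraries scaled to the same sum, 0 without the libraries numbered 3 (where the smallest possible p is 0.0667), and between 1 and 2 when each library was left out, Mbd2 joining Mbd1 without the third 2-m, the first 28-m or the second 28-m library. The share of all genes, 25.4% in the main setting, was not computed for these settings. Of the list genes, 2 and 3 were called with the same sum, against 7 and 7. In MBD-seq, 3 of the 8 start sites lay wholly higher at 28 months within 500 bp (36.6% of all genes) and 1 wholly lower (15.9%), against 5 (37.1%) and 1 (20.9%) within 1 kb.

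Signs turned only for differences that were not called. Mbd3 in 28-m against 20-m muscle gave 0.0211 with quantile normalization. Without the libraries numbered 3, Tdg gave −0.31, −0.0674 and 0.24 in 20-m against 2-m, 28-m against 2-m and 28-m against 20-m muscle, and Mbd4 0.30 in 28-m against 2-m muscle. Tdg in 28-m against 20-m muscle gave 0.0904 with edgeR and 0.0866 with DESeq2, also without the first 2-m library, where Uhrf2 in 28-m against 2-m muscle gave −0.0204. Leaving out each library gave −0.13 to 0.04 for Apobec2 and −0.45 to 0.54 for Tdg in 20-m against 2-m muscle. In 28-m against 2-m muscle the ranges were −0.0263 to 0.0748 for Mbd2, −0.62 to 0.13 for Mbd4, −0.55 to 0.55 for Tdg and −0.0261 to 0.0832 for Uhrf2. In 28-m against 20-m muscle they were −0.0936 to 0.0283 for Mbd3, −0.53 to 0.38 for Tdg, −0.17 to 0.87 for Uhrf1 and −0.15 to 0.022 for Uhrf2. The causes were not tested.

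Calls over all genes fell to 969, 837 and 17 with no filter, 586, 554 and 24 with the same sum, and 1099, 712 and 11 without the libraries numbered 3, and ranged from 1081 to 2231, 963 to 1846 and 14 to 88 when each library was left out. In 28-m against 20-m muscle they were 103 with a batch term, 76 with only the libraries of the 2 ages and 228 with DESeq2. A mean of at least 50 left Tdg and Uhrf1 untested. The DESeq2 fit without the first 2-m library and the list counts were chosen after seeing the data. Uhrf1 and Tdg rest on 1 to 49 reads per library, and their intervals are the widest of the 8.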
